A study of Mus musculus with 9 samples.

Results

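Complexes II to V of the mitochondrial respiratory chain were followed through their nuclear-encoded subunits in mouse liver. Members were the genes of the deposited count table named as subunits of succinate dehydrogenase (Sdha to Sdhd), of the cytochrome bc1 complex (Cyc1 and the Uqcr genes), of cytochrome c oxidase (the Cox4 to Cox8 genes) and of ATP synthase (the Atp5 genes), with pseudogene names left out and at least 10 counts in at least 3 libraries. Of 21898 genes in the table, 49 carried such a name, and 42 were kept. These were 4 of complex II, 9 of complex III, 12 of the 18 named for complex IV and 17 of the 18 named for complex V. The rule used no difference between groups, and all 42 entered the tests. Cox6b2 met the count limit only through model and TA libraries, so its calls against normal are no support for a rise.

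The material was RNA from liver of C57BL/6 mice in 3 groups of 3 libraries. The normal group, which the sample titles call wt, received saline. The model group had metabolic-associated fatty liver disease induced with an MCD diet, a feed lacking methionine and choline. The TA group had the same diet-induced disease and was treated with tormentic acid, a plant triterpenoid, which the sample titles call a high dose. The dose and duration are not stated. The labels do not say whether each library came from a separate mouse, so the p-values speak for the spread among the libraries alone.

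Complex II oxidises succinate and passes the electrons to ubiquinone, complex III passes them on to cytochrome c, and complex IV hands them to oxygen. Complexes III and IV also move protons across the inner mitochondrial membrane, and complex V lets the protons flow back to make ATP. Complex II is encoded wholly in the nucleus, whereas complexes III, IV and V also hold subunits encoded by mitochondrial DNA. Hepatocytes are rich in mitochondria, and their fatty acid oxidation, urea synthesis and gluconeogenesis depend on the chain.

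The libraries held 13710002 to 16475794 counts. Scaling the libraries was the choice that mattered most for these genes. Trimmed-mean (TMM) factors were 0.824 to 0.842 in the normal, 1.19 to 1.44 in the model and 0.801 to 1.01 in the TA libraries, so that a fixed share of a model library counted for less after scaling. With library totals in place of these factors, the median of all 13200 genes tested moved by 0.69 on the log2 scale between model and normal and fell by 0.59 between TA and model. Levels below are TMM-scaled counts, set to a common library size and given as CPM, unless stated, and changes are log2 fold changes with their standard errors relative to the typical gene, from edgeR's quasi-likelihood test with Benjamini-Hochberg adjustment over all genes tested. Calls needed an adjusted p under 0.05. By the gene coordinates listed with the counts, Uqcrb, Uqcrc2, Cox4i1, Cox6c, Atp5a1, Atp5d, Atp5j, Atp5md and Atp5pb overlap a gene on the other strand. Without a stated strand setting their reads cannot be told apart from those of the partner. Cox4i1 also overlaps Galnt2l on the same strand.

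Per kilobase of gene length, the deposited FPKM values placed the members over a wide range in normal liver. Cox6a1, an accessory subunit of complex IV in its form found outside striated muscle, was the highest at 359 ± 47.7 FPKM (SD, n = 3). Next in the order of mean FPKM were Atp5a1 and Atp5b, which form the catalytic head of ATP synthase, at 299 ± 10.8 and 257 ± 16.9 FPKM, and Cox8a, a small complex IV subunit, at 248 ± 19.2 FPKM. Atp5b and Cox8a did not differ beyond their spread. The highest members of the other complexes were Uqcrfs1, the Rieske iron-sulfur protein of complex III, at 149 ± 4.11 FPKM, and Sdhd, a membrane anchor of complex II, at 148 ± 13.3 FPKM, which overlapped each other. FPKM values rest on library totals, so groups are not compared on them here. In all, 37 of the 42 members had a normal mean of 10 FPKM or more and 12 had 100 or more.

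At the low end stood Cox6b2, the form of Cox6b known from testis, at 0.0920 ± 0.0839 FPKM. Atp5o, which encodes the stalk protein OSCP of ATP synthase, had 11, 2 and 2 counts in the normal, 20, 1 and 20 in the model and 13, 17 and 14 in the TA libraries. GENCODE M21 holds overlapping same-strand entries named Atp5o, and the other one (ENSMUSG00000116933) was listed at 0 in every library, so the level of this gene is uncertain. Atp5l and Atp5k, small subunits of the membrane part of ATP synthase, had means of 0.850 ± 0.306 and 7.53 ± 1.40 FPKM in normal liver.

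**Figure D1:**
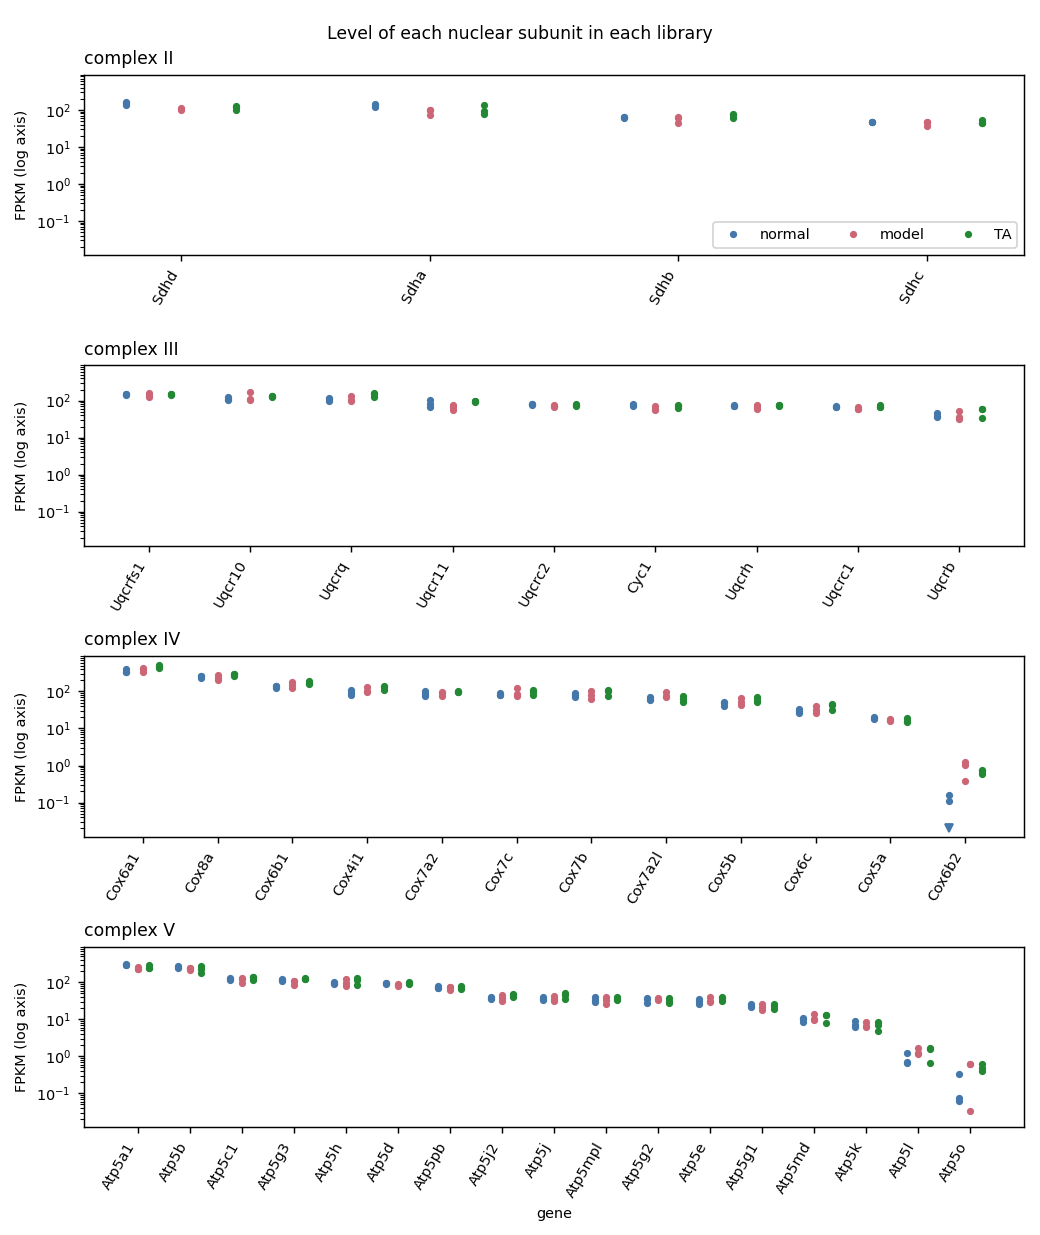
Points are the FPKM of the 42 kept members in each of 9 libraries, on a log axis, with 1 panel per complex and genes ordered by their normal mean; a triangle at the bottom marks a library listed at 0. In normal liver 37 of 42 members average 10 FPKM or more, and Cox6b2, Atp5o and Atp5l average under 1.

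Isoforms of complex IV known from striated muscle, lung or testis were near the floor. Cox7b2, Cox8b and Cox8c were listed at 0 in all 9 libraries, and Cox4i2, known from lung, had at most 4 counts in any library. Cox7a1, a heart and skeletal muscle form, had 11, 4 and 7 counts in the normal, 9, 7 and 4 in the model and 1, 2 and 1 in the TA libraries. Its TA libraries were at 1 or 2 counts. Cox6a2, also a muscle form, had 0, 0 and 0 counts in the normal, 12, 3 and 15 in the model and 4, 0 and 5 in the TA libraries. All 3 normal libraries were at 0 and all 3 model libraries held counts, while TA libraries ran from 0 to 5. By the gene coordinates listed with the counts, Cox6a2 overlaps Itgad, an integrin gene of macrophages on the other strand. Itgad had 0 counts in the normal and 12, 1 and 7 counts in the model libraries. Whether the counting used strand is not stated, and reads of these genes cannot be told apart. Summed markers of striated muscle were 0.148 to 0.221 CPM in the normal, 0.303 to 0.530 CPM in the model and 0.163 to 4.70 CPM in the TA libraries, with 4 of 10 markers at 0 throughout.

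In the model group, subunits of all 4 complexes were lower relative to the typical gene. Of the 42 members, 30 were called lower and 1, Cox6b2, higher, while 22.6% of all genes tested were called lower and 25.4% higher. Cox6b2 was kept only through libraries of the groups where it was high. The median log2 fold change of the members was -0.69, against 0.005 for all genes tested. All 4 subunits of complex II fell (median -0.99), as did 8 of 9 of complex III (median -0.80) and 13 of 17 of complex V (median -0.69). Complex IV had 5 lower and 1 higher of 12, with a median of -0.55. The 3 model libraries lay wholly below the 3 normal ones for 38 members, above them for 1 and overlapped them for 3, where 30.0% of all genes lay below and 31.3% above.

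The calls depended on whether scaling factors were used. DESeq2 size factors and TMM factors computed without the mitochondrial genome each gave 31 lower. With library totals the members had a median log2 fold change of -0.01 while the typical gene stood at 0.69, and 1 member was called lower (Sdhd, log2 fold change -0.48, adjusted p = 0.0173) and 1 higher (Cox6b2). At that setting 6.3% of all genes were called lower and 55.1% higher. The log2 fold change turned above 0 for 16 members, of which 8 were called lower with TMM (Uqcr10, Uqcrq, Cox6a1, Cox7b, Atp5e, Atp5g2, Atp5h and Atp5j2). Relative to the median gene the members stood at -0.69 with TMM and -0.70 with library totals. Another scaling moves all genes by nearly the same amount, so these values had to be alike and are no separate check. Without model replicate 3 the number called lower was 16, beside 2242 of all 13318 genes tested. Without normal replicate 2 it was 19, beside 2487 of 13499 genes.

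The makeup of the tissue RNA moved with the same groups. All 11 tested hepatocyte markers fell in the model group (median log2 fold change -1.52), and their summed level was 126619 to 155504 CPM in the normal, 47154 to 79623 CPM in the model and 115486 to 155118 CPM in the TA libraries. All 12 macrophage and monocyte markers rose (median 3.16), from 401 to 505 CPM summed in the normal libraries to 2895 to 3650 CPM in the model libraries, and stood at 1232 to 1813 CPM in the TA libraries. No marker of either list was at 0 throughout. Among stellate cell and fibroblast markers 8 of 10 rose, and 7 of 8 cholangiocyte markers did. In bulk tissue, fewer cells of a type and less RNA per cell cannot be told apart, and the part of these lists in the changes of the members was not tested.

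Between TA and model the members moved the other way. Of 42 members, 33 rose and none fell, where 11.8% of all genes tested were called higher and 11.1% lower. No member was called lower by DESeq2 either, and none had an unadjusted edgeR p under 0.05 with a log2 fold change below 0, since all 42 fold changes were above 0. Their median was 0.73, against -0.01 for all genes. All 4 members of complex II, all 9 of complex III, 9 of 12 of complex IV (median 0.76) and 11 of 17 of complex V (median 0.70) rose. TA libraries lay wholly above the model libraries for 33 members and overlapped them for 9, where 19.0% of all genes lay above. Both comparisons use the same 3 model libraries, so the fall against normal and the rise in TA are not independent measurements.

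These calls also depended on scaling factors and on single libraries. DESeq2 size factors gave 30 higher and TMM without the mitochondrial genome 33. With library totals 1 member, Uqcr11, was called higher (log2 fold change 0.55, adjusted p = 0.0351) where 3.04% of all genes were called higher and 43.3% lower, and the median of the members was 0.15 where the typical gene stood at -0.59. Of 7 members whose log2 fold change turned below 0, Cox5a had been called higher. Relative to the median gene the members stood at 0.74, beside 0.75 with TMM, which scaling could hardly change because it moves all genes alike. Leaving out model replicate 3 left 3 members called higher, leaving out TA replicate 3 left 8, TA replicate 2 left 15 and model replicate 1 left 20, whereas leaving out TA replicate 1 gave 35. In the TA group 9 of 11 hepatocyte markers were higher than in the model (median 1.08) and 9 of 12 macrophage markers lower (median -1.19); their part in the result was not tested. Short genes as a whole were also higher in TA than in model, with a median of 0.32 for the 805 tested genes under 1500 bases and -0.07 for the 9521 of 3000 bases or more. Members stood at 0.71 in the first class (17 genes) and 0.70 in the second (11 genes).

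**Figure D2:**
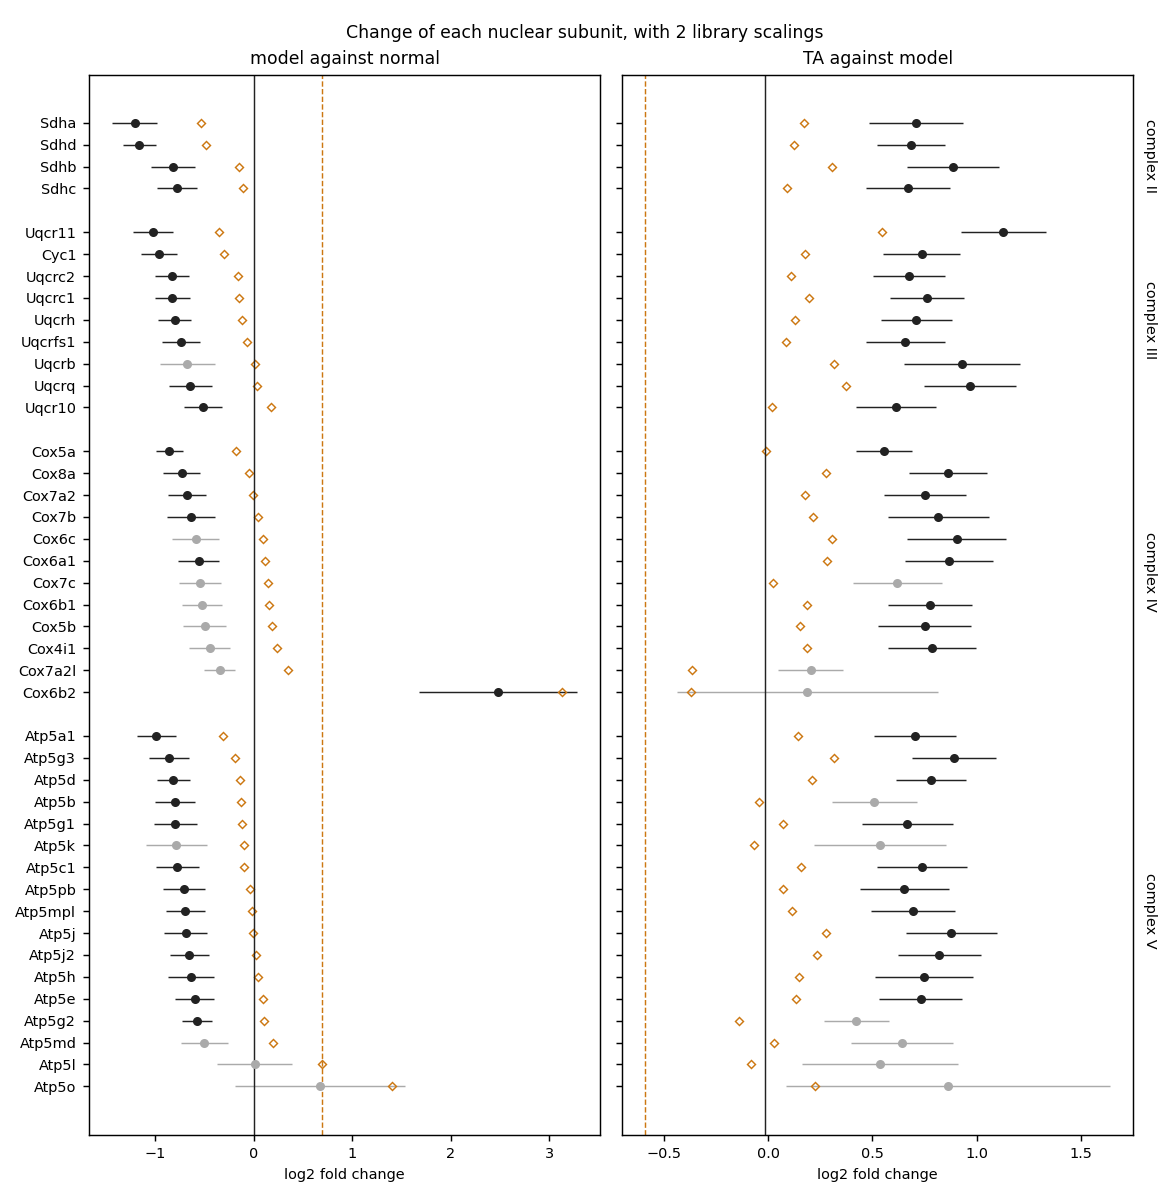
Each row is a member, grouped by complex; filled circles with bars are log2 fold changes ± SE with TMM scaling (black where the adjusted p was under 0.05, grey where it was not), open diamonds the same with library totals, and the solid and dashed lines the medians of all genes under each. With TMM 39 of 42 members lie below 0 in model against normal and all 42 above 0 in TA against model; with library totals the median member lies at -0.01 and 0.15 and the median gene at 0.69 and -0.59.

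Complex II fell the most of the 4 complexes in the model, by its median. Sdha, the flavoprotein that oxidises succinate, stood at 666, 574 and 718 CPM in the normal, 217, 348 and 283 in the model and 563, 429 and 395 in the TA libraries. No model library reached the lowest normal library, and the TA libraries lay between the other groups. Its log2 fold change was -1.21 ± 0.23, adjusted p = 0.00126 in the model, and TA was higher than model (0.71 ± 0.22, adjusted p = 0.0413). Sdhd, a membrane anchor, stood at 241, 197 and 221 CPM in the normal, 94.4, 115 and 85.0 in the model and 156, 162 and 156 in the TA libraries. The 3 groups did not overlap, and the TA values were the closest together of any member. Sdhd had the smallest p of all members in the model comparison (-1.16 ± 0.17, adjusted p = 0.000222) and rose in TA (0.69 ± 0.16, adjusted p = 0.0137).

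Sdhb carries the iron-sulfur clusters of complex II and Sdhc is the other membrane anchor. Sdhb stood at 178, 169 and 158 CPM in the normal, 95.4, 120.1 and 70.8 in the model and 136, 178 and 215 in the TA libraries. Model libraries were the lowest throughout, and TA replicate 3 was the highest of all 9. Log2 fold changes of Sdhb were -0.82 ± 0.22, adjusted p = 0.00998 in the model and 0.89 ± 0.22, adjusted p = 0.0162 in TA against model. Sdhc stood at 190, 186 and 179 CPM in the normal, 109.6, 131 and 83 in the model and 144, 159 and 211 in the TA libraries. Its groups of normal and TA libraries overlapped, with the model below both (-0.78 ± 0.20, adjusted p = 0.00802 against normal, and 0.67 ± 0.20, adjusted p = 0.0342 for TA against model). With library totals Sdha was at -0.54 (adjusted p = 0.0594), Sdhb at -0.15 and Sdhc at -0.11 in the model comparison.

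Complex III combines a catalytic core with small accessory proteins. Cyc1, cytochrome c1, which hands electrons to cytochrome c, stood at 190, 211 and 192 CPM in the normal, 92.2, 131 and 82.1 in the model and 160.2, 175 and 173 in the TA libraries. The 3 groups did not overlap, with TA between normal and model. Cyc1 fell in the model (-0.96 ± 0.19, adjusted p = 0.00156) and rose in TA against model (0.74 ± 0.19, adjusted p = 0.0169). Uqcrfs1, which carries the Rieske cluster, stood at 251, 243 and 235 CPM in the normal, 134, 182 and 122 in the model and 202, 224 and 265 in the TA libraries. Normal and TA overlapped, and the model lay below (-0.74 ± 0.19, adjusted p = 0.00783, and 0.66 ± 0.19, adjusted p = 0.0286 in TA). Uqcrc1 and Uqcrc2 are the large core proteins on the matrix side. Uqcrc1 stood at 329, 350.4 and 340.4 CPM in the normal, 175, 234 and 168 in the model and 317, 308 and 353 in the TA libraries, and Uqcrc2 at 238, 244 and 250.4 CPM in the normal, 119, 168 and 125 in the model and 204, 223 and 233 in the TA libraries. For both, every model library was below every other library. Uqcrc1 had log2 fold changes of -0.82 ± 0.18, adjusted p = 0.00301 and, in TA against model, 0.76 ± 0.18, adjusted p = 0.0124. For Uqcrc2 they were -0.83 ± 0.17, adjusted p = 0.00238 and 0.68 ± 0.17, adjusted p = 0.0176.

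Among the small subunits of complex III, Uqcr11 had the smallest p of all members in TA against model. It stood at 64.2, 78.9 and 50.8 CPM in the normal, 35.1, 35.5 and 24.6 in the model and 59.5, 68.8 and 80.0 in the TA libraries. Normal replicate 3 was the lowest of its group, and all model libraries were below it. Log2 fold changes were -1.02 ± 0.20, adjusted p = 0.00181 in the model and 1.13 ± 0.20, adjusted p = 0.00467 in TA against model. Uqcrh, the hinge protein at the cytochrome c docking site, stood at 111, 112 and 107 CPM in the normal, 68.6, 71.1 and 49.95 in the model and 89.0, 106 and 116 in the TA libraries. Its normal libraries were the most alike of any member on the log2 scale (SD 0.03). Uqcrh fell in the model (-0.80 ± 0.17, adjusted p = 0.00269) and rose in TA (0.71 ± 0.17, adjusted p = 0.0138). Uqcrq, which sits beside cytochrome b, stood at 245, 263 and 209 CPM in the normal, 171, 166 and 123 in the model and 222, 308 and 369.7 in the TA libraries. TA replicates 2 and 3 exceeded every normal library, while TA replicate 1 lay within the normal range. The changes were -0.64 ± 0.22, adjusted p = 0.0299 and 0.97 ± 0.22, adjusted p = 0.0108. Uqcr10 was called in both directions too (-0.52 ± 0.19, adjusted p = 0.0457, then 0.61 ± 0.19, adjusted p = 0.0417).

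Uqcrb, the ubiquinone-binding protein next to cytochrome b, was the member of complex III not called in the model (-0.68 ± 0.28, adjusted p = 0.0652). It stood at 41.6, 48.2 and 38.3 CPM in the normal, 33.3, 27.3 and 19.6 in the model and 28.8, 59.1 and 65.2 in the TA libraries. Normal and model did not overlap, but TA replicate 1 fell within the model range while TA replicates 2 and 3 were above all others. TA was called higher than model even so (0.93 ± 0.28, adjusted p = 0.034).

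Complex IV showed the smallest median shift in the model, and 6 of its 12 members were not called there. Cox5a, an accessory subunit on the matrix side, was the clearest of those that fell. It stood at 46.3, 50.1 and 49.8 CPM in the normal, 27.1, 30.1 and 23.7 in the model and 41.0, 37.7 and 40.2 in the TA libraries. The 3 groups did not overlap, with TA between them. Its changes were -0.85 ± 0.13, adjusted p = 0.00041 in the model and 0.56 ± 0.13, adjusted p = 0.0139 in TA; with library totals they were -0.18 and -0.011. Cox8a, a single-pass membrane subunit, stood at 197, 188 and 168 CPM in the normal, 120, 123 and 90.5 in the model and 166, 209.6 and 231 in the TA libraries. Model libraries were lowest, and TA replicates 2 and 3 were above all normal libraries. Cox8a fell in the model (-0.73 ± 0.19, adjusted p = 0.00703) and rose in TA (0.86 ± 0.19, adjusted p = 0.00857). Cox6a1 stood at 287, 346 and 275 CPM in the normal, 212, 238 and 168 in the model and 315, 347 and 466 in the TA libraries. All model libraries were below all others, and TA replicate 3 was the highest. It was called in both (-0.56 ± 0.21, adjusted p = 0.0453 and 0.87 ± 0.21, adjusted p = 0.0142). Cox7b was called in both as well (-0.64 ± 0.24, adjusted p = 0.0468, then 0.82 ± 0.24, adjusted p = 0.0321).

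Cox4i1, the general form of the regulatory subunit that binds ATP, stood at 176, 198 and 147 CPM in the normal, 144, 134 and 105 in the model and 167, 223 and 268 in the TA libraries. Model replicate 1 was just below normal replicate 3, and model and normal did not overlap. Its lower level in the model was not called (-0.45 ± 0.21, adjusted p = 0.101), whereas TA was called higher than model (0.78 ± 0.21, adjusted p = 0.022). With library totals its log2 fold change in the model turned to 0.24 (adjusted p = 0.271). Cox6b1, which faces the intermembrane space, stood at 118, 121 and 106 CPM in the normal, 91.1, 89.4 and 59.8 in the model and 110, 137 and 165 in the TA libraries. It missed the threshold in the model by its last digits (-0.52 ± 0.20, adjusted p = 0.05) and rose in TA (0.78 ± 0.20, adjusted p = 0.0194). Cox5b, Cox6c and Cox7c had log2 fold changes of -0.50 ± 0.22, -0.59 ± 0.24 and -0.54 ± 0.21 in the model, with adjusted p-values of 0.0855, 0.0603 and 0.0539. The pseudogene entry Cox5b-ps held 74 to 144 counts per library, and whether its reads and those of Cox5b were told apart is not known here. In TA against model Cox5b (0.75) and Cox6c (0.90) were called, and Cox7c (0.62, adjusted p = 0.0566) was not.

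Cox7a2 and Cox7a2l are related proteins. The first is the general Cox7a subunit, and Cox7a2l (also called SCAF1) joins complexes III and IV into a supercomplex; C57BL/6 mice are known to carry a shortened form of it. Cox7a2 stood at 99.1, 113 and 85.9 CPM in the normal, 60.7, 76.7 and 49.2 in the model and 88.4, 104 and 121 in the TA libraries, and Cox7a2l at 128, 109 and 103 CPM in the normal, 102, 88.1 and 78.3 in the model and 109.7, 104 and 95.1 in the TA libraries. For Cox7a2 the model libraries were the lowest. For Cox7a2l they lay below all normal libraries, model replicate 1 by little, and overlapped the TA libraries. Cox7a2 fell in the model (-0.68 ± 0.20, adjusted p = 0.0142) and rose in TA (0.75 ± 0.20, adjusted p = 0.0191). Cox7a2l was called in neither (-0.34 ± 0.16, adjusted p = 0.0935, then 0.20 ± 0.16, adjusted p = 0.37), and with library totals it stood at 0.35 in the model. Within a library, where scaling has no part, the log2 ratio of Cox7a2l to Cox7a2 per kilobase was -0.45 ± 0.21 in normal, -0.11 ± 0.30 in model and -0.66 ± 0.33 in TA (mean ± SD, n = 3). The groups overlapped, and the exact two-sided permutation test gave p = 0.3 for model against normal and p = 0.2 for TA against model, where 0.1 is the smallest that 3 against 3 libraries can give (adjusted over 12 ratio tests, 0.514 and 0.4).

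Cox6b2 went against the other members. It had 3, 0 and 2 counts in the normal, 22, 18 and 7 in the model and 13, 9 and 12 in the TA libraries. Normal libraries held at most 3 counts and no normal library reached a model or TA library. It was called higher in the model (2.48 ± 0.80, adjusted p = 0.0243) and in TA against normal (2.67 ± 0.82, adjusted p = 0.0467), and passed the filter on low counts only through the groups where it was high. The call in the model was lost without normal replicate 2, normal replicate 3, model replicate 1 or model replicate 2, each leaving 0 members called higher.

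Complex V is built of a catalytic head, a rotor with its ring of subunit c, and a stator. In the head, Atp5b holds the catalytic sites and Atp5a1 the neighbouring nucleotide sites. Atp5a1 stood at 1101, 1111 and 1168 CPM in the normal, 502, 692 and 513 in the model and 939, 877 and 963 in the TA libraries, and Atp5b at 1306, 1216 and 1397 CPM in the normal, 649.5, 889.5 and 709.8 in the model and 1171, 1085 and 946 in the TA libraries. The 3 groups did not overlap for either gene, and TA lay between normal and model. Both fell in the model, Atp5a1 with -0.99 ± 0.20, adjusted p = 0.00188 and Atp5b with -0.80 ± 0.20, adjusted p = 0.00734. In TA against model Atp5a1 was called (0.70 ± 0.20, adjusted p = 0.0257) and Atp5b was not (0.51 ± 0.20, adjusted p = 0.0917).

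The central stalk holds Atp5c1, Atp5d and Atp5e. Atp5d stood at 226, 215 and 210.2 CPM in the normal, 118, 146 and 106 in the model and 201, 199.5 and 236 in the TA libraries. Model libraries were below all others, and normal and TA overlapped. It fell in the model (-0.81 ± 0.17, adjusted p = 0.00237) and rose in TA (0.78 ± 0.17, adjusted p = 0.00898). Atp5c1, the rotating shaft, changed by -0.77 ± 0.22, adjusted p = 0.0119 in the model and 0.74 ± 0.22, adjusted p = 0.0299 in TA, and Atp5e by -0.60 ± 0.20, adjusted p = 0.0274 and 0.73 ± 0.20, adjusted p = 0.0226.

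In the stator, Atp5pb, Atp5h and Atp5j were all called in both comparisons. Atp5j stood at 138, 151 and 124 CPM in the normal, 96.1, 92.2 and 67.8 in the model and 112, 162 and 198 in the TA libraries. TA replicate 1 was below every normal library and replicates 2 and 3 above every one. Its changes were -0.69 ± 0.22, adjusted p = 0.0224 in the model and 0.88 ± 0.22, adjusted p = 0.0161 in TA. Those of Atp5pb were -0.71 ± 0.21 and 0.65 ± 0.21, and of Atp5h -0.64 ± 0.24 and 0.75 ± 0.24. Among the small membrane subunits, Atp5j2 stood at 151, 160.2 and 136 CPM in the normal, 104, 108 and 72.9 in the model and 134, 171 and 198 in the TA libraries. It was lowest in the model (-0.65 ± 0.20, adjusted p = 0.0183) and rose in TA (0.82 ± 0.20, adjusted p = 0.0143). Atp5mpl was called in both comparisons too, with -0.69 ± 0.20 and 0.70 ± 0.20. Atp5md, Atp5k, Atp5l and Atp5o were called in neither. Atp5l ran from 4.35 to 12.5 CPM over the 9 libraries, and its TA replicate 1 was the lowest of all. Atp5o (0.67 ± 0.86, adjusted p = 0.542) and Atp5l (0.01 ± 0.38) were the members of complex V with a log2 fold change above 0 in the model.

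The ring of subunit c is encoded by Atp5g1, Atp5g2 and Atp5g3, which make the same mature protein after different targeting peptides are cut off. The start of that shared coding stretch, from GENCODE M21 transcripts on GRCm38, shows how far reads can tell the genes apart; capitals mark the 22 of 90 bases at which the genes differ.
Atp5g1: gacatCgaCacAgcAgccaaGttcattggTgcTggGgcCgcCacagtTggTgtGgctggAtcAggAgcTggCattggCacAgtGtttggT
Atp5g2: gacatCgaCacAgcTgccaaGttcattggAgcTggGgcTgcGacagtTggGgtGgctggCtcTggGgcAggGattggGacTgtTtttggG
Atp5g3: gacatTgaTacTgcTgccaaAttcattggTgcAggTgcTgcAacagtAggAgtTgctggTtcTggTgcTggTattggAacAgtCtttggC
Over the coding bases of the whole mature protein the genes differed at 58 positions, 52 of them the third base of a codon. Atp5g1 and Atp5g2 were 85.1% identical there, and their longest identical run was 21 bases. Atp5g3 was 79.8% identical to Atp5g1 and 78.5% to Atp5g2, with longest runs of 11 and 8 bases. The genes lie on chromosomes 11, 15 and 2, and how the authors' counting treated reads with several matches is not stated.

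Atp5g3 led the 3 subunit c genes, with 62.7% to 70.8% of their summed FPKM in every library. It stood at 297, 328 and 278 CPM in the normal, 165, 201 and 131 in the model and 259, 308 and 355 in the TA libraries. Model libraries were below all others (-0.86 ± 0.20, adjusted p = 0.00453), and TA was higher than model (0.89 ± 0.20, adjusted p = 0.0106). Atp5g1 stood at 139.6, 149.9 and 125 CPM in the normal, 91.4, 87.7 and 60.5 in the model and 92.8, 129 and 159 in the TA libraries. TA replicate 1 was just above the highest model library, and the changes were -0.79 ± 0.22, adjusted p = 0.0116 and 0.67 ± 0.22, adjusted p = 0.0475. Atp5g2 stood at 75.0, 68.6 and 56.3 CPM in the normal, 44.0, 51.0 and 39.3 in the model and 64.7, 57.1 and 58.0 in the TA libraries. It fell in the model (-0.57 ± 0.16, adjusted p = 0.0103) and was not called in TA (0.42 ± 0.16, adjusted p = 0.072). The share of Atp5g2 was 18.0% to 21.4% in the normal, 21.7% to 24.4% in the model and 15.1% to 21.9% in the TA libraries. Its log2 ratio to Atp5g3 per kilobase was -1.80 ± 0.17 in normal, -1.50 ± 0.12 in model and -1.97 ± 0.31 in TA (SD, n = 3). The ratios did not overlap between model and either other group. Exact permutation gave p = 0.1 for each, the smallest it can give, and 0.4 after adjustment over the 12 ratio tests.

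Summed over each complex, the scalings gave different pictures. Complex II summed to 1126 to 1275 CPM in the normal, 517 to 714 CPM in the model and 928 to 999 CPM in the TA libraries. As a share of library counts it was 0.102% ± 0.00633 in normal, 0.0775% ± 0.00631 in model and 0.0872% ± 0.0117 in TA (SD, n = 3), with model libraries below normal ones on this scale too. Complex IV summed to 1489 ± 143 CPM in normal, 1008 ± 181 CPM in model and 1706 ± 330 CPM in TA, but its share of counts was 0.124% ± 0.0125, 0.135% ± 0.0218 and 0.151% ± 0.0124, and those groups overlapped between normal and model. Complex III took 0.130% ± 0.00687, 0.121% ± 0.0106 and 0.139% ± 0.0021 of the counts, and complex V 0.368% ± 0.00543, 0.334% ± 0.0199 and 0.358% ± 0.0139. All kept members together were 0.711% to 0.743% of the normal, 0.611% to 0.697% of the model and 0.726% to 0.747% of the TA libraries. For this sum and for complex V every model library was below every normal one without scaling factors as well. These sums weigh members by their counts, to which Atp5a1 and Atp5b gave the most. With library totals Atp5a1 stood at 907 to 974 CPM in the normal and 708 to 821 CPM in the model libraries. Atp5b stood at 1024 to 1165 and 916 to 1055 CPM, which overlapped. At that setting 10 complex V members had a log2 fold change below 0 and 7 above, and none was called. Of all 42 members, 23 were below 0 and 19 above. Sums without the largest members were not tested.

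The ratio of complex II to complex IV within a library does not depend on scaling. It was 0.847, 0.694 and 0.952 in the normal, 0.461, 0.646 and 0.652 in the model and 0.726, 0.544 and 0.480 in the TA libraries. Every model library was below every normal library, and TA overlapped both. The means were 0.831 ± 0.130, 0.586 ± 0.109 and 0.583 ± 0.128 (SD, n = 3), and no test was run on them. The ratio of complex V to complex IV was 2.98 ± 0.28, 2.52 ± 0.32 and 2.38 ± 0.29.

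**Figure D3:**
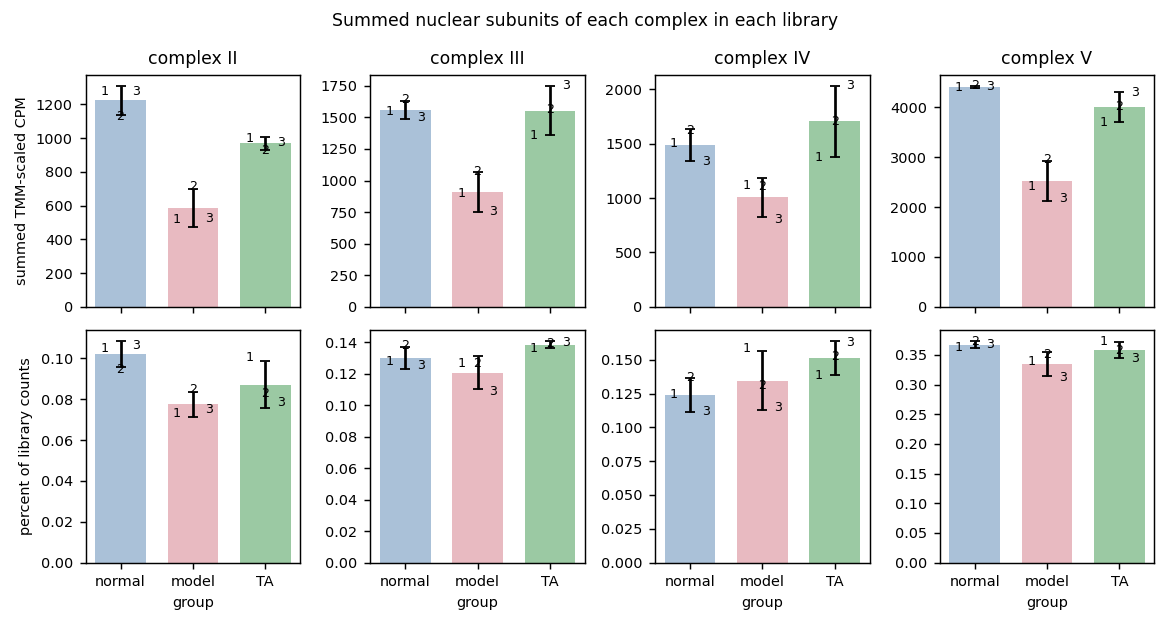
Bars are group means of the summed members of each complex with SD (n = 3), and the digits 1 to 3 are the replicates; the upper row is in TMM-scaled CPM and the lower row in percent of library counts. Model bars are lowest for all 4 complexes in the upper row; in the lower row they are lowest for complexes II, III and V and lie between normal and TA for complex IV.

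Between TA and normal liver few of these genes were called. No member was called lower and 1, Cox6b2, higher (adjusted p = 0.0467), where 5.03% of all genes tested were called lower and 10.7% higher. Cox6b2 was kept only through model and TA libraries, so its call is no support for a rise. At an unadjusted edgeR p under 0.05, 3 were lower and 1 higher, DESeq2 called 1 lower, and limma-voom called none in either direction. The call of Cox6b2 was lost without any 1 normal or TA library, and without model replicate 1. The members' median log2 fold change was 0.07, with -0.29 for complex II, -0.06 for complex III, 0.22 for complex IV and 0.003 for complex V. Sdhd (-0.47 ± 0.16, adjusted p = 0.0709) and Sdha (-0.50 ± 0.22, adjusted p = 0.155) were the lowest. Their TA libraries lay below all normal ones, and so did those of Cyc1, Uqcrc2, Cox5a, Atp5a1 and Atp5b, at log2 fold changes of -0.15 to -0.30; for 34 members TA and normal overlapped, where 16.1% of all genes lay below and 20.1% above. A p over the threshold does not show that the groups were alike.

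The TA libraries were spread. For the 38 members averaging at least 10 CPM, the median log2 level relative to the normal mean was -0.25 in TA replicate 1, 0.08 in replicate 2 and 0.24 in replicate 3. The spread between TA libraries differed by gene, with a median SD of 0.27 over members, from 0.03 for Sdhd to 0.76 for Atp5l. Relative to the mean of the other TA libraries, replicate 1 differed in log2 level by -1.31 for Atp5l, -1.08 for Uqcrb and -0.89 for Atp5md, and was higher by 0.45 for Sdha and 0.21 for Atp5b. The genes of the mitochondrial genome took 4.93% of its counts, beside 12.5% and 15.4% in the other TA libraries, 6.46% to 7.80% in the normal and 7.37% to 11.6% in the model libraries. Model libraries were spread as well, with medians of -0.61, -0.54 and -1.03, and normal libraries lay within 0.12 of their mean. What set TA replicate 1 and model replicate 3 apart was not tested.

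**Figure D4:**
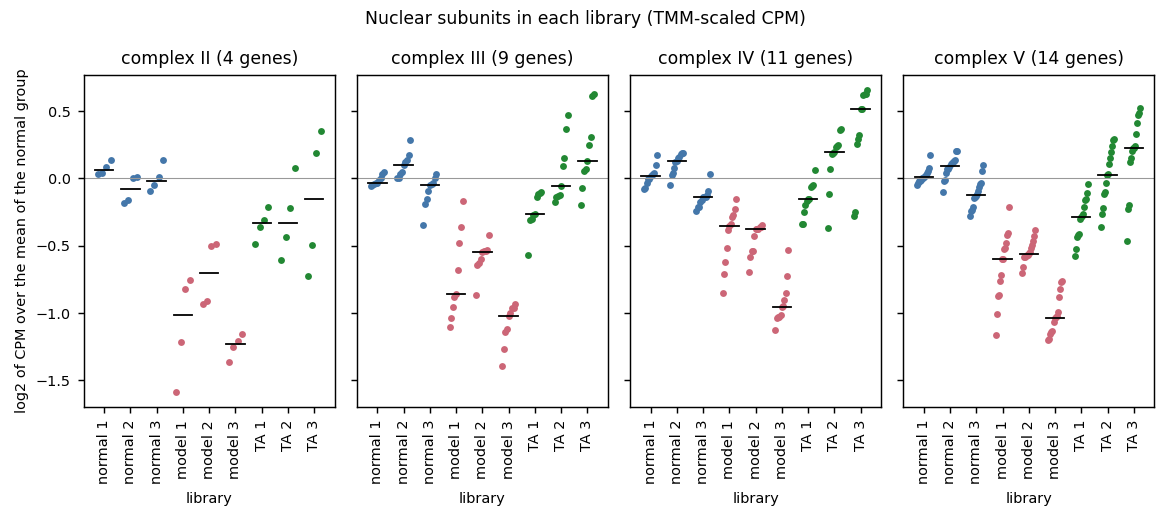
Each point is a member's TMM-scaled CPM in a library over its mean in the normal group, on a log2 axis, for the 38 members averaging at least 10 CPM; black bars are medians per library and complex. Model libraries lie below 0 in every panel, model replicate 3 the lowest, and TA replicate 3 lies above 0 for most members of complexes III to V.

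The partners of these genes were read from lists of the pathway. Mitochondrial DNA encodes cytochrome b of complex III, the catalytic core of complex IV and a pair of complex V subunits. Of the 5 such genes tested, none was called in the model by edgeR (4 of 5 log2 fold changes below 0, median -0.43) and mt-Co3 alone was called higher in TA (2.25 ± 0.57, adjusted p = 0.0166), with TA replicate 1 inside the range of the model libraries. With library totals the direction in the model turned, with 4 of 5 above 0 (median 0.27) and mt-Co2 called higher (0.81, adjusted p = 0.0463). The ratio of nuclear complex IV counts to mt-Co1 to mt-Co3 was 0.0375 to 0.0402 in the normal, 0.0310 to 0.0381 in the model and 0.0569, 0.0268 and 0.0240 in the TA libraries. TA replicate 1 had the highest ratio of the 9 libraries. In the sums, mt-Co1 gave 475749 to 970093 counts but 398852 in TA replicate 1, while mt-Co2 had 556 to 1489 counts, so that mt-Co1 set the value. The counts of mt-Co3 (440 to 2697) and mt-Atp6 (136 to 573) were also far below those of mt-Co1. The reason was not tested, and the calls of mt-Co3 and mt-Co2 may not reflect the levels of these genes.

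Complex I, which feeds ubiquinone from NADH, moved with the members. Of its 36 nuclear subunits tested, 25 fell in the model (median -0.71) and 27 rose in TA against model (median 0.75), with none called the other way. Of all genes tested, 22.6% were called lower in the model and 11.8% higher in TA. Ndufb11, an accessory membrane subunit, stood at 70.6, 76 and 62.2 CPM in the normal, 31.7, 36.7 and 25.6 in the model and 55.6, 65.3 and 68.8 in the TA libraries. All model libraries were below all others (-1.15 ± 0.17, adjusted p = 0.000243, and 1.01 ± 0.17, adjusted p = 0.00337 in TA). Ndufb8 had -0.97 ± 0.14, adjusted p = 0.000201 in the model and Ndufs6 0.997 ± 0.17, adjusted p = 0.00372 in TA. Ndufa4, a complex IV subunit outside the name rule, stood at 261, 279.9 and 238 CPM in the normal, 119, 159 and 104 in the model and 205, 251 and 289 in the TA libraries. It fell in the model (-1.03 ± 0.20, adjusted p = 0.00172) and rose in TA (0.96 ± 0.20, adjusted p = 0.00807). With library totals 3 complex I genes were called lower and 1 higher in the model, so this count depended on scaling as that of the members did. Of all genes, 6.3% were then called lower and 55.1% higher.

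Of 34 assembly factors tested, 16 fell and 1 rose in the model (median -0.52), where 22.6% of all genes fell and 25.4% rose. In TA against model 5 of 34 rose, where 11.8% of all genes did. Surf1, which helps insert heme into complex IV, stood at 37.5, 37.8 and 38.4 CPM in the normal, 20.7, 20.9 and 19.9 in the model and 33.8, 31.0 and 39.1 in the TA libraries. The model libraries were the lowest and close together (-0.89 ± 0.13, adjusted p = 0.0003, then 0.76 ± 0.13, adjusted p = 0.00406). Lrpprc, which stabilises mitochondrial mRNAs, fell too (-0.95 ± 0.18, adjusted p = 0.00136), and Fmc1, an assembly factor of complex V, rose in TA (1.16 ± 0.22, adjusted p = 0.0058). Cox17, the copper chaperone of complex IV, was higher in the model (1.56 ± 0.38, adjusted p = 0.00592) at 1.70, 0.596 and 1.26 CPM in the normal, 3.58, 3.32 and 3.73 in the model and 2.84, 3.10 and 2.18 in the TA libraries. With library totals 6 assembly factors were called higher and none lower in the model, where 55.1% of all genes were higher and 6.3% lower. In TA against model 1 was then higher and 4 lower, where 3.04% of all genes were higher and 43.3% lower. The medians of the list became 0.17 and -0.22, but the typical gene stood at 0.69 and -0.59. Relative to the typical gene the list stayed lower in the model and higher in TA, which a shift shared by all genes could hardly change.

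Genes that feed ubiquinone or make coenzyme Q had 10 of 19 called lower in the model and 9 of 19 higher in TA. Of all genes, 22.6% were lower in the model and 11.8% higher in TA. With library totals 2 were called lower and 3 higher in the model, where 6.3% of all genes were lower and 55.1% higher. In TA 1 was then lower and 2 higher, where 43.3% of all genes were lower and 3.04% higher. Coq8a, an atypical kinase needed for coenzyme Q synthesis, stood at 677, 429 and 555 CPM in the normal, 41.7, 121 and 68.9 in the model and 218, 146 and 189 in the TA libraries. The 3 groups did not overlap; it fell in the model (-2.84 ± 0.36, adjusted p = 9.34e-05), also with library totals (-2.20, adjusted p = 0.000215). Coq5 fell (-0.83 ± 0.15, adjusted p = 0.00096), while Coq10a and Coq10b, coenzyme Q-binding proteins, rose in TA (0.81 ± 0.15, adjusted p = 0.00526, and 1.51 ± 0.30, adjusted p = 0.00608). Coq4 (0.43 ± 0.33, adjusted p = 0.298) and, in TA, Pdss1 (-0.33 ± 0.33, adjusted p = 0.505) pointed the other way and were not called, though with library totals Coq4 was called higher in the model (1.09, adjusted p = 0.00935). In the tricarboxylic acid cycle 8 of 13 fell in the model and 4 rose in TA, beside the same shares of all genes. With library totals 1 was called lower and 4 higher in the model (median 0.15, where the typical gene stood at 0.69). In TA against model 2 were then lower and none higher (median -0.19, where the typical gene stood at -0.59). By these medians the list stayed below the typical gene in the model and above it in TA, which scaling could hardly change. Sucla2, a subunit of succinyl-CoA synthetase, and Idh3b, of isocitrate dehydrogenase, led with -1.08 ± 0.15, adjusted p = 0.000231 and -0.83 ± 0.16, adjusted p = 0.00165. In TA they were at 0.72 ± 0.15, adjusted p = 0.00857 and 0.80 ± 0.16, adjusted p = 0.007, and Idh3a was called in neither (0.37 ± 0.19, adjusted p = 0.136, then -0.41 ± 0.19, adjusted p = 0.149). With library totals Idh3a was called in both (1.04, adjusted p = 0.000581, and -0.98, adjusted p = 0.00226).

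Of 9 carriers and porins tested, 2 fell in the model, near the 22.6% of all genes called lower. Another 1 rose, where 25.4% of all genes were called higher. In TA against model 1 rose, near the 11.8% of all genes called higher. With library totals none was called lower and 7 higher in the model, and 4 lower and none higher in TA. Of all genes, 6.3% were then called lower and 55.1% higher in the model, and 43.3% lower and 3.04% higher in TA. Vdac1, the outer membrane channel, fell (-0.77 ± 0.17, adjusted p = 0.00364) and rose in TA (0.59 ± 0.17, adjusted p = 0.0298). Slc25a4, the adenine nucleotide carrier typical of muscle and heart, stood at 7.22, 8.27 and 4.67 CPM in the normal, 28.6, 16.4 and 22.4 in the model and 13.3, 12.4 and 15.2 in the TA libraries. Its model libraries were above all others (1.74 ± 0.25, adjusted p = 0.000247, and -0.72 ± 0.24, adjusted p = 0.051 in TA).

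Of 15 regulators of respiratory genes, 4 were lower and 1 higher in the model, where 22.6% of all genes were called lower and 25.4% higher. With library totals none was lower and 6 higher, where 6.3% of all genes were called lower and 55.1% higher. Tfam, which packages and transcribes mitochondrial DNA, stood at 47.5, 45.8 and 46.2 CPM in the normal, 26.3, 33.8 and 27.9 in the model and 32.6, 35.8 and 42.5 in the TA libraries. All model libraries were below all normal ones, and model overlapped TA (-0.66 ± 0.15, adjusted p = 0.0036; with library totals 0.01, adjusted p = 0.929). Polrmt, the mitochondrial RNA polymerase, fell with -0.57 ± 0.15 (adjusted p = 0.00799), Tfb2m with -0.82 ± 0.19 (adjusted p = 0.00395) and Gabpa, an ETS factor, with -0.60 ± 0.20 (adjusted p = 0.0283). Pprc1, a coactivator related to PGC-1, rose (1.12 ± 0.21, adjusted p = 0.00141). Nrf1 (0.04 ± 0.17, adjusted p = 0.852), Esrra (0.17 ± 0.18, adjusted p = 0.434) and Ppargc1a (-0.007 ± 0.39, adjusted p = 0.989) were not called. In TA against model Ppargc1b (1.15 ± 0.31, adjusted p = 0.0228), Polrmt (0.51 ± 0.15, adjusted p = 0.0298) and Yy1 (0.44 ± 0.14, adjusted p = 0.042) rose, and Nrip1, a corepressor, fell (-0.75 ± 0.23, adjusted p = 0.0345). That was 3 higher and 1 lower of 15, where 11.8% of all genes tested were called higher and 11.1% lower. With library totals none of the list was called higher and 5 lower (median -0.29), with Polrmt at -0.058 (adjusted p = 0.821) and Ppargc1b at 0.56 (adjusted p = 0.16). Of all genes, 3.04% were then called higher and 43.3% lower, and the typical gene stood at -0.59. Ppargc1b stood at 3.17, 2.98 and 3.93 CPM in the normal, 3.89, 3.37 and 2.90 in the model and 5.08, 11.0 and 6.52 in the TA libraries, with every TA library above every other.

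**Figure D5:**
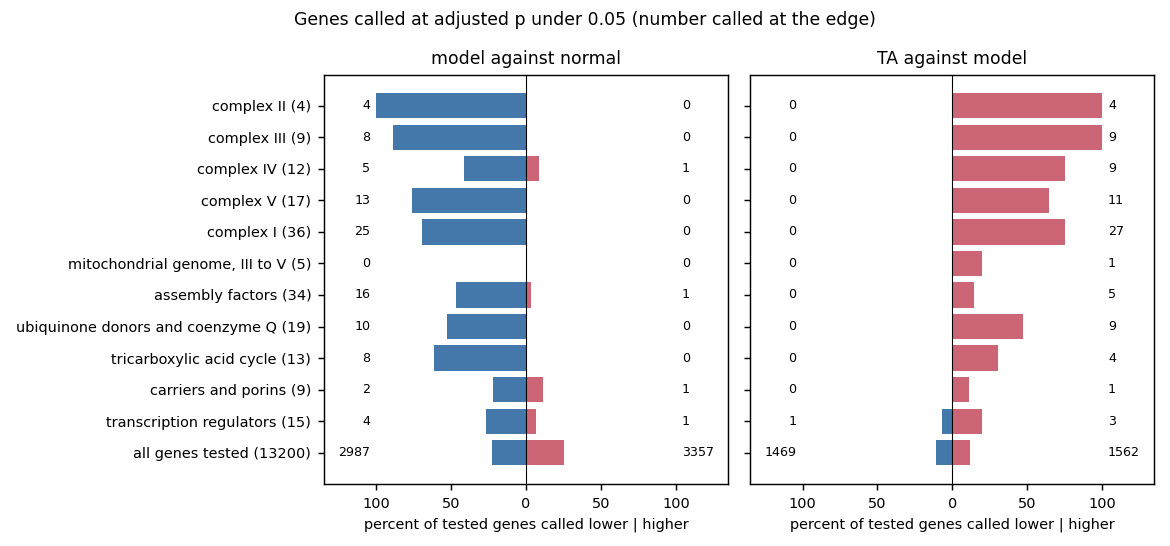
Bars give the percent of tested genes called lower (blue, left) and higher (red, right) at adjusted p under 0.05 with TMM scaling in each complex and pathway list, with the number tested in brackets and the number called at the edge. Complexes I, II, III and V have most genes lower in the model, complex IV has 5 of 12, and all genes tested split 2987 to 3357. With library totals 1 member is called lower in the model, and no assembly factor, carrier or regulator, beside 6.3% of all genes.

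Promoters were searched because the members moved together. RefSeq windows on GRCm38.p6, from 250 bases before to 50 bases after the start, were found for 33 of the 42 members. Motifs were searched on both strands and their matches may overlap. GGGCGG, the GC box bound by Sp factors, was in 13 of the 33 (39.4%; 35.9% of all 27025 promoters), and CCAAT, the NF-Y box, in 18 (54.5%; 37.9%). CCGGAAGT, an ETS site, was in 4 (12.1%; 4.0%), namely Atp5h, Cox8a, Uqcr11 and Uqcrh. The palindrome bound by NRF1 was in 4 (12.1%; 0.977%), namely Atp5g2, Atp5k, Cox6a1 and Uqcrc1. TCAAGGTCA, an estrogen-related receptor site, was in Atp5g3 and Sdhd (6.06%; 0.407%). Neither a YY1 motif (0.699% of all promoters) nor a direct-repeat nuclear receptor element (0.0259%) was in any of the 33. Median GC content was 56.7% in the members and 52.7% in all promoters. A match is a description of the letters in this window, not a bound site.

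Shown, for complexes II, III and IV, are the windows of the member with an entry that had the lowest p in the model comparison. That of complex V, Atp5d, held none of the motifs. Capitals mark motif matches on either strand. The Sdhd window (chr9:50603800-50604099, minus strand) holds a GC box that begins 3 bases before the start and an estrogen-related receptor site 36 bases after it. The Uqcr11 window (chr10:80406772-80407071, minus strand) holds an ETS site 66 bases before the start, and the Cox5a window (chr9:57520982-57521281, plus strand) GC boxes 13 bases before and 36 bases after it.
Sdhd: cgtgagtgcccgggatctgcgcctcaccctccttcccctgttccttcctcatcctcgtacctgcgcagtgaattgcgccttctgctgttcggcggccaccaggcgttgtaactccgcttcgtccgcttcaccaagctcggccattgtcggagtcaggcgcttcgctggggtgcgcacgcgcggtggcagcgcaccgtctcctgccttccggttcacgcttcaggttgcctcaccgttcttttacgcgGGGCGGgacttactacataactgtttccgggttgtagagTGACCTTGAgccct
Uqcr11: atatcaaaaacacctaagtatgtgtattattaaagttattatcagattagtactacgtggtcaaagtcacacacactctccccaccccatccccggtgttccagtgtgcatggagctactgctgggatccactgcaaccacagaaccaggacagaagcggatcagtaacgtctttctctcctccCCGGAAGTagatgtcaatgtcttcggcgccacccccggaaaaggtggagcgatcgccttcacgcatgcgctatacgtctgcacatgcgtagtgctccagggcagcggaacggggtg
Cox5a: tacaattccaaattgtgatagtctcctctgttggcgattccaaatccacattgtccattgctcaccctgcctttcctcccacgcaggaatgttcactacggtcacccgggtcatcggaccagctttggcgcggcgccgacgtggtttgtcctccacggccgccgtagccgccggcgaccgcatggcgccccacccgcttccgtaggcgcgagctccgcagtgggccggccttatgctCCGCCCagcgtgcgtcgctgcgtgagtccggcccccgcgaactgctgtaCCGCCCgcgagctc

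In the authors' deposited table of DESeq results, all 42 members had a value in both main comparisons. The authors' deposited table had 33 of 42 members under an adjusted p of 0.05 in model against normal, all lower, and 39 of 42 with a fold below 1. Cox6b2, called higher here, was not under it there (DESeq adjusted p = 0.0988). For TA against model the authors' deposited table had 15 members under that threshold, all higher, and no fold below 1, where edgeR called 33 higher. The share of all genes under the threshold in the authors' results was not read, so these counts cannot be set against it.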

How the data were processed

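RNA was sequenced from 9 liver libraries in 3 groups of 3, grouped by the labels. Per the labels' protocols, Trizol was used on liver tissue and a NEBNext Ultra kit for the libraries; the submitters' processing notes name the mouse build mm9, and the counter and its strand setting are not stated. The authors deposited raw read counts per gene and FPKM values per kilobase of the listed gene length. The authors also deposited DESeq tables with a fold (a ratio of group means) and an adjusted p-value per gene. Listed starts matched GRCm38 for 514 of 21794 gene IDs, so positions were read from GRCm38 annotation. Overlaps with genes on the other strand were read from the listed starts and ends.

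Counts were filtered with edgeR's filterByExpr (minimum count 10, minimum total 15; 13200 genes), scaled by TMM and tested with edgeR 4.0.16 quasi-likelihood (R 4.3.3) over all 9 libraries, with Benjamini-Hochberg adjustment over all genes tested. Alternatives were DESeq2 1.42.0, limma 3.58.1 voom, other scalings, other filters, the 6 libraries compared alone, a replicate block and each library left out. Depth was 13710002 to 16475794 counts. Isoform ratios were tested by exact two-sided permutation. No library pair held identical values, and 0 columns of other samples were present.

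Values per library were given, for each complex and main comparison, for up to 4 called members ranked by p and the lowest-p member of the opposite direction, for isoform pairs and for the highest member by FPKM; pathway lists gave up to 2 genes per comparison and 1 in the opposite direction. Other members and regulators printed were chosen after their values were seen. The members and lists were chosen with earlier results of these data known.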

Additional observations from a re-analysis of the deposited data

How the results depend on the processing

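For model against normal, 30 were lower. Library totals gave 1, and leaving out each library gave 16 (without model replicate 3) to 38 (without TA replicate 1). Of all genes, 2242 of 13318 and 3364 of 13464 were lower at these last settings. The 1 called higher, Cox6b2, gave 0 with 10 counts required in every library of a group and with only the 6 libraries compared, since 41 members were then tested and it was not among them, and was 0 to 1 when each library was left out. For TA against model, 33 were higher. Library totals gave 1, and only the 6 libraries compared gave 20, beside 1047 of all 13059 genes. Leaving out each library gave 3 (without model replicate 3) to 35 (without TA replicate 1), beside 656 of 13318 and 1625 of 13464 genes. For TA against normal, 0 were lower and 1 was lower with only the 6 libraries compared and with DESeq2 (0 to 1 when each library was left out). The 1 higher, also Cox6b2, became 0 with no filter and with limma-voom, was again not tested with 10 counts in every library of a group (0), and was 0 to 1 when each library was left out. DESeq2 size factors and TMM without the mitochondrial genome gave 31 and 31 lower in the model and 30 and 33 higher in TA against model. The cause of the other shifts was not tested.

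The replicate numbers are not known to pair the libraries. In their deviations from the group means, 0 of 9 same-number pairs correlated over 0.1, which cannot show that there was no pairing. With the replicate block, 25 members were lower in model against normal, 21 higher in TA against model and 0 higher in TA against normal. Of all 13200 genes, the numbers called in the same directions were 2618, 1131 and 1141.

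With library totals the log2 fold change changed sign for 16 members in model against normal, 7 in TA against model and 6 in TA against normal. In model against normal they became 0.174 for Uqcr10, 0.01 for Uqcrb, 0.183 for Cox5b, 0.091 for Cox6c, 0.044 for Cox7b, 0.143 for Cox7c, 0.093 for Atp5e, 0.045 for Atp5h, 0.194 for Atp5md, 0.039 for Uqcrq, 0.118 for Cox6a1, 0.025 for Atp5j2, 0.239 for Cox4i1, 0.155 for Cox6b1, 0.350 for Cox7a2l and 0.104 for Atp5g2. In TA against model they became -0.011 for Cox5a, -0.372 for Cox6b2, -0.042 for Atp5b, -0.368 for Cox7a2l, -0.139 for Atp5g2, -0.07 for Atp5k and -0.082 for Atp5l. In TA against normal they became 0.008 for Uqcrh, 0.072 for Atp5d, 0.045 for Uqcrc1, 0.018 for Uqcrfs1, 0.054 for Atp5c1 and 0.032 for Atp5pb. Leaving out each library also turned uncalled changes. In TA against normal the ranges were -0.104 to 0.192 for Sdhb, -0.046 to 0.269 for Uqcr11, -0.044 to 0.176 for Cox7a2, -0.116 to 0.008 for Atp5d, -0.088 to 0.109 for Atp5g3, -0.008 to 0.357 for Atp5j and -0.323 to 0.028 for Atp5g1. Cox6b2 ran from -0.193 to 0.427 in TA against model. The log2 difference in the ratio of Atp5g1 to Atp5g2, TA against normal, ran from -0.213 to 0.255, and that in the ratio of Atp5g1 to Atp5g3, model against normal, from -0.036 to 0.136. Depth limits Cox6b2 and Atp5o, which held at most 22 and 20 counts in a library.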
